A study of Mus musculus with 6 samples.

Results

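The genes described here encode the enzymes that write and erase DNA methylation and the core of Polycomb repressive complex 2 (PRC2), followed in splenic natural killer (NK) cells that lack the RNA methyltransferase METTL3. They were chosen by gene symbol as a fixed list of 10: Dnmt1, Dnmt3a and Dnmt3b, Tet1, Tet2 and Tet3, and Ezh1, Ezh2, Suz12 and Eed. All 10 were among the 14490 genes of the deposited table, and all 10 passed the filter on low values. The study compared NK cells sorted from the spleens of C57BL/6 mice of 2 genotypes by polyA mRNA-seq, with 3 samples of each. WT samples were Mettl3fl/fl, so they carry the floxed alleles and no Cre, and cKO samples were Ncr1Cre-Mettl3fl/fl, in which Cre from the Ncr1 (NKp46) locus deletes Mettl3 in cells that express NKp46. No mice with Cre alone were compared, so the effect of the Cre allele and that of the deletion cannot be told apart here. The labels give no age and do not say whether a sample is 1 animal or a pool, and p-values measure the spread between these samples only.

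DNA methyltransferases add a methyl group to cytosine, mostly at CpG dinucleotides. DNMT1 copies the existing pattern onto the new strand after replication, DNMT3A and DNMT3B set new marks, and the TET dioxygenases oxidise 5-methylcytosine, which opens the way to its removal. PRC2 methylates lysine 27 of histone H3 (H3K27): EZH1 or EZH2 is its catalytic subunit, SUZ12 its scaffold, and EED the subunit that binds the finished mark and stimulates the enzyme. In lymphocytes both systems keep gene silencing in place through division and differentiation, and EZH2 is known to restrain the development of NK cells from their progenitors. METTL3 acts on RNA, not DNA: it deposits N6-methyladenosine (m6A) within short sequence contexts, of which GGACU is a common form, often near the stop codon. In cDNA its U is written as T.

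Because METTL3 is the deleted enzyme, the GGACT letters near the stop codons of these transcripts are shown first. 1 principal GENCODE transcript was taken for each gene, and GGACT was searched on the transcribed strand within 200 bases to either side of the end of the stop codon. Of 10269 genes in the table with a complete window, 41.2% held the motif. Among the enzymes and subunits it was found for Dnmt1, Dnmt3b and Eed, not for Dnmt3a, Tet1, Tet2, Ezh1, Ezh2 or Suz12, and the Tet3 transcript used had too short a 3' end for a full window. The sites are given 5′ to 3′ with GGACT in capitals and 10 bases on either side.
Dnmt1, chr9:20907513-20907537 of GRCm38, minus strand, last codons and stop codon: ctgctaccaaGGACTagtgctctca
Dnmt3b, chr2:153686368-153686392, plus strand, coding sequence: cccccttgaaGGACTactttgcctg
Dnmt3b, chr2:153686399-153686423, plus strand, 3' UTR: gttctacccaGGACTggggagctct
Eed, chr7:89954754-89954778, minus strand, 3' UTR: cttcctgctcGGACTttactgcttt
The Dnmt1 match ends on the first base of its stop codon. The Eed match begins 168 bases past the end of its stop codon and the 2067-base Eed transcript holds 1 GGACT in all. Over the whole transcript, the Suz12 sequence held 0 copies of GGACT and that of Dnmt3a 15, of which 12 lie in its 3' UTR. Per kb this was 1.55 for Dnmt3a, 0.484 for Eed and 0.559 for Dnmt1, against a median of 1.05 over 11785 transcripts. These are matches of letters, and m6A was not measured in the samples used here.

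Reads on the listed genes numbered from 55965515 to 71464042 per sample. The values are counts divided by the authors' size factor for each sample (normalized counts), compared on the log2(value + 1) scale by the two-sided test of limma. Adjusted p-values below are from that limma fit to all samples, adjusted by Benjamini-Hochberg over the whole table. Those given with equal totals, with the replicate block or without a replicate are from limma fitted anew under that setting. Mettl3 had 1303, 1258 and 1192 normalized counts in WT and 297, 299 and 405 in cKO. Its log2 fold change of −1.92 (adjusted p = 2.32e-14) has the direction its genotype label calls for. Ncr1, the locus that carries Cre, fell from 22394 ± 286 (SD, 3 samples) to 16918 ± 230 (SD, 3 samples) normalized counts, a log2 fold change of −0.40 (adjusted p = 3.56e-11). All 12 NK markers examined were present in every sample, 2 of them higher and 6 lower in cKO. Among markers of other cells, 8 of 11 B-cell genes rose, from sums of 1474 to 1489 in WT to 2014 to 2093 in cKO. Of 10 T-cell genes Lef1 rose and Cd3g and Cd6 fell, of 7 myeloid genes 4 rose and 1 fell, and of 5 erythroid genes 0 did either. Over all 14490 genes 36.6% were called, 17.8% higher and 18.8% lower in cKO. The share was 66.7% of the NK, 72.7% of the B-cell, 30% of the T-cell and 71.4% of the myeloid genes. Myeloid sums ran from 47199 to 50095 in WT and from 50018 to 51654 in cKO, most of it Itgax, which NK cells express, and S100a8, S100a9, Mpo and Ly6g were not listed. T-cell sums, mostly Tcf7, ran from 21221 to 22682 and from 21206 to 22138 in cKO. Of the CD3 chains, Cd3g fell from a mean of 802 to 478 normalized counts (adjusted p = 4.50e-08), while Cd3d had means of 710 and 660 and Cd3e of 151 and 166, neither called. Erythroid sums ran from 811 to 870 and from 684 to 832.

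Of the 10 enzyme and subunit genes, 3 differed between the genotypes: Eed and Dnmt3a fell and Dnmt1 rose. The other 7, the 3 Tet genes, Dnmt3b, Ezh1, Ezh2 and Suz12, did not pass the test. The share called was 30% of the 10, near the 36.6% of all 14490 genes, where 17.8% were called higher and 18.8% lower in cKO. The same 3 were those whose cKO and WT values did not overlap, where 45.7% of all genes did not. Changes were small, with a median size of 0.10 on the log2 scale against 0.17 for all genes. A size of 0.5 was exceeded by 0 of the 10 and by 1758 of the 14490. The 10 are also more highly expressed, with a median level of 4843 normalized counts against 879.5 for all genes. Neither the shares called nor the sizes were compared at matched level, here or for the gene lists. With the samples scaled to equal totals, 2 of the 10 rose and 2 fell, Suz12 being added to the rises. These are bulk samples, so a lower level may come from fewer cells of one kind or from less RNA per cell, which cannot be told apart.

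**Figure D1:**
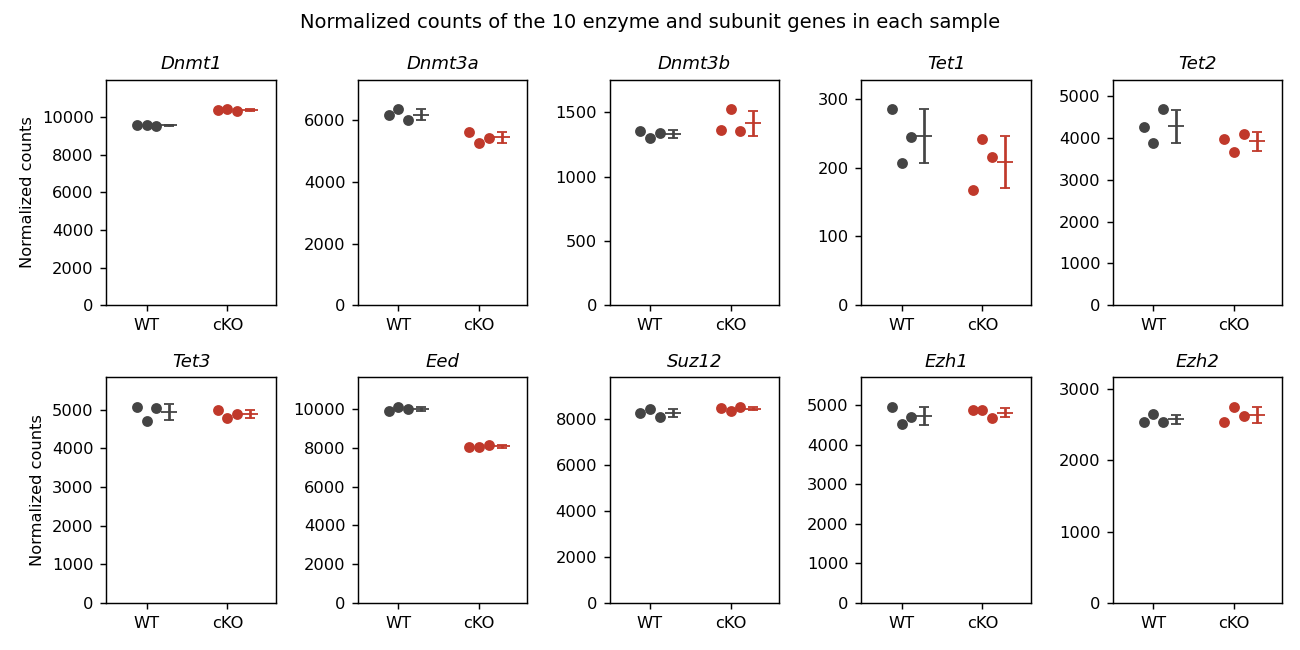
Normalized counts (y axis, from 0) of each gene in the 3 WT (grey) and 3 cKO (red) samples, with the mean and SD at the right of each group. Eed lies between 9924 and 10131 in WT and between 8042 and 8171 in cKO, Dnmt3a and Dnmt1 also separate, and the other 7 genes overlap.

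Levels between genes were compared per kb of exon, using the merged exons of GENCODE M21. In WT cells Eed stood highest at 2619 ± 27.1 normalized counts per kb (SD, 3 samples), followed by Suz12 at 1675 ± 33.7 and Dnmt1 at 1294 ± 5.44. Ezh1 had 636 ± 29.7 and Ezh2 385 ± 9.37, so by this measure the transcript of the alternative catalytic subunit EZH1 was the more abundant of the pair. Dnmt3a had 371 ± 10.8, Tet3 296 ± 12.6, Dnmt3b 261 ± 5.79 and Tet2 254 ± 24.0. Tet1 was far below the rest at 15.9 ± 2.52. Among neighbours in this order, WT samples of Ezh2 and Dnmt3a overlapped, as did those of Dnmt3b and Tet2, and the other neighbours did not. The order was the same in cKO, where Eed stood at 2113 ± 18.4 per kb. Annotated exons that NK cells do not use lower a level per kb, by an amount that differs between genes. Merged exons of Ezh2 come to 6.678 kb against 2787 bases in its principal transcript, and those of Ezh1 to 7.44 kb against 4193. For Dnmt3a these are 16.642 kb and 9685 bases, and for Tet2 16.87 kb and 9179. For Tet3, whose transcript used had a short 3' end, they are 16.695 kb and 5944 bases. For Eed they are 3.828 kb and 2067 bases, so such genes may be understated. For Tet1 they lie closer, at 15.457 kb and 14369 bases. The order, and the size of the excess of Ezh1 over Ezh2, therefore depend on the length used.

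**Figure D2:**
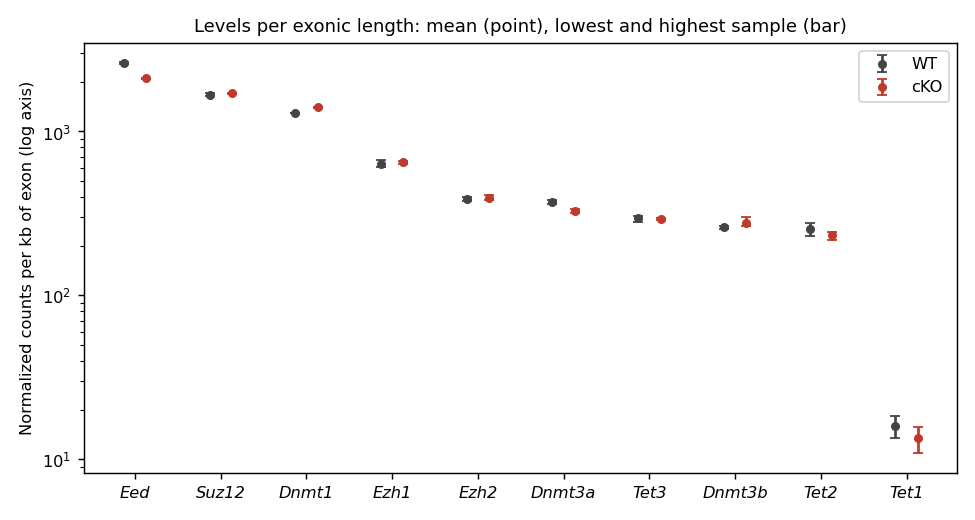
Normalized counts per kb of exon (y axis, log scale) for each gene, ordered by the WT mean, with the mean as a point and the lowest and highest of 3 samples as a bar for WT (grey) and cKO (red). Eed, Suz12 and Dnmt1 stand highest, Tet1 lies below 20, and the order is the same in both genotypes.

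Among the DNA methyltransferases, the maintenance enzyme and the de novo enzyme DNMT3A moved in opposite directions at the transcript level. Dnmt1 spans 20907209 to 20959888 of chromosome 9 in GRCm38, the build of all positions here. Its normalized counts were 9573, 9572 and 9503 in WT and 10393, 10414 and 10306 in cKO. The samples of a genotype lay within 1% of each other by SD and every cKO sample was above every WT sample. The rise was 8.60%, a log2 fold change of 0.12 (standard error 0.0320, 95% confidence interval 0.05 to 0.18, adjusted p = 0.00435).
Dnmt3a (chromosome 12, 3806007 to 3914443, plus strand) had 6177, 6360 and 5999 normalized counts in WT and 5617, 5268 and 5437 in cKO. All cKO values were below all WT values. It fell by 11.9%, a log2 fold change of −0.18 (standard error 0.0382, interval −0.26 to −0.11, adjusted p = 0.00038). An antisense gene that shares 133 exonic bases with it, 0.8% of its exons, was not in the table.
Dnmt3b (chromosome 2, 153649450 to 153687730), the second de novo enzyme, had 1357, 1299 and 1338 normalized counts in WT and 1366, 1525 and 1352 in cKO. The values overlapped, cKO sample 2 was the highest, and the log2 fold change was 0.09 (adjusted p = 0.295). Its interval runs from −2.68% to 15.6%, which includes the rise seen for Dnmt1. Without cKO replicate 2 the log2 fold change was 0.03 (adjusted p = 0.77).
The ratio of Dnmt3a to Dnmt1 within a sample does not depend on how samples are scaled. In normalized counts it was 0.647 ± 0.0167 (SD, 3 samples) in WT and 0.525 ± 0.0175 (SD, 3 samples) in cKO, a difference of −0.30 in the log2 ratio. The highest cKO ratio, 0.541, was below the lowest WT ratio, 0.631 (p = 0.1 in a two-sided exact permutation test, which 3 samples against 3 cannot go below). This separation follows from those of Dnmt3a and Dnmt1 given above, so the test adds no support to them and the ratio is a description.

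The TET genes, whose products oxidise 5-methylcytosine, had lower means in cKO without passing the test in any of the 3 cases. Tet2 (chromosome 3, 133463679 to 133545139) had 4261, 3884 and 4693 normalized counts in WT and 3986, 3670 and 4101 in cKO. WT sample 2 lay below 2 of the cKO samples, and the spread in WT, with an SD of 405, was wide beside the difference. The log2 fold change was −0.12 (interval −0.23 to −0.02, adjusted p = 0.0683). With 1 replicate left out it ran from −0.06 without WT replicate 3 (adjusted p = 0.449) and −0.08 without cKO replicate 2 (adjusted p = 0.31) to −0.16 without cKO replicate 3 (adjusted p = 0.0321) and −0.19 without WT replicate 2 (adjusted p = 0.00386). With all 6 samples and the replicate number as a block, it was called (adjusted p = 0.0142), so the call changed with both the samples and the model.
Tet3 (chromosome 6, 83362373 to 83459084) had 5069, 4696 and 5050 normalized counts in WT and 4981, 4782 and 4886 in cKO. The cKO samples lay within the range of WT. Its log2 fold change of −0.02 (adjusted p = 0.803) turned to 0.03 with equal totals, and its interval, −6.55% to 4.73%, bounds a change in either direction at under 10%.
Tet1 (chromosome 10, 62804570 to 62908996) had 285, 207 and 245 normalized counts in WT and 168, 242 and 215 in cKO. The values overlapped, with cKO sample 1 the lowest. Between 165 and 287 reads stood behind each value, which alone gives a counting error of up to 7.79%, and the spread between samples was 15.9% in WT and 18.0% in cKO. The log2 fold change of −0.24 did not pass the test (adjusted p = 0.237), and its interval runs from −32.1% to 5.33%. It was −0.10 without cKO replicate 1 and −0.13 without WT replicate 1, and −0.36 without either WT replicate 2 or cKO replicate 2, never passing the test.

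Of the PRC2 genes among the 10, Eed fell while Suz12, Ezh1 and Ezh2 did not pass the test. Rbbp4 and Rbbp7, given further below, also fell. Eed (chromosome 7, 89954654 to 89980983) had normalized counts of 9924, 10131 and 10016 in WT and 8042, 8057 and 8171 in cKO. The 2 groups are each tight, with an SD of 104 in WT and 70.4 in cKO, and stand well apart. The fall was 19.3%, a log2 fold change of −0.31 (standard error 0.0328, interval −0.38 to −0.24, adjusted p = 2.76e-08), and 73.7% of all genes changed by as much or less. The gene shares 261 exonic bases, 6.8% of its exons, with the antisense gene E230029C05Rik. That gene was listed at 71.5, 44.0 and 60.5 normalized counts in WT and 48.8, 51.8 and 43.0 in cKO, and the strand setting of the counting is not given in the sources used here.
Suz12 (chromosome 11, 79993106 to 80034123), the scaffold, had 8283, 8447 and 8114 normalized counts in WT and 8490, 8388 and 8548 in cKO. The groups overlapped by 1 sample on each side, and the log2 fold change was 0.03 (interval −0.04 to 0.10, adjusted p = 0.477). With equal totals it was 0.08 with an adjusted p of 0.0471. Its exons share 178 bases with the antisense gene Gm26563, listed at 27.4 to 56.6 normalized counts in WT and 32.9 to 40.7 in cKO.
With the authors' size factors, the catalytic subunits had intervals within 10% of no change. With equal totals the log2 fold change was 0.0752 for Ezh1 (limma adjusted p = 0.142) and 0.0832 for Ezh2 (limma adjusted p = 0.153). Ezh1 (chromosome 11, 101191115 to 101226463) had 4963, 4522 and 4717 normalized counts in WT and 4877, 4884 and 4688 in cKO. WT samples held both the highest and the lowest value, and the log2 fold change was 0.03 (adjusted p = 0.67). Ezh2 (chromosome 6, 47530139 to 47595341) had 2540, 2643 and 2530 normalized counts in WT and 2534, 2747 and 2618 in cKO. Its groups overlapped as well, with a log2 fold change of 0.03 (adjusted p = 0.621) and an interval from −4.23% to 9.40%.
The ratio of Ezh1 to Ezh2 was 1.84 ± 0.123 (SD, 3 samples) in WT and 1.83 ± 0.0815 (SD, 3 samples) in cKO, in normalized counts. The ranges overlapped, and the log2 ratio differed by −0.01 (exact permutation test, two-sided, p = 0.9). The ratio of Eed to Suz12, computed after their values were seen and therefore given as a description, was between 1.20 and 1.23 in WT and between 0.947 and 0.961 in cKO.

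**Figure D3:**
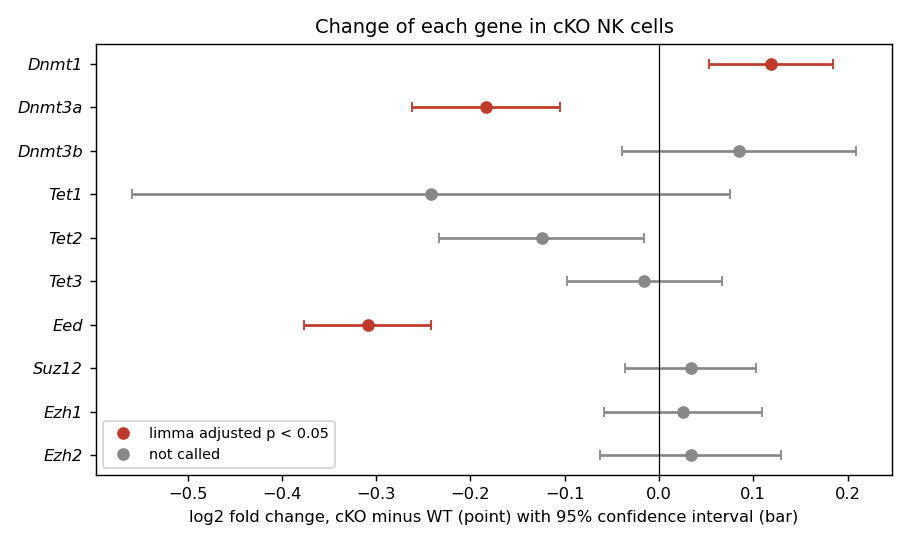
Log2 fold change of each gene, cKO minus WT (x axis), with its 95% confidence interval from limma, red where the adjusted p was under 0.05 and grey otherwise. Eed and Dnmt3a lie below 0 and Dnmt1 above, Tet1 has the widest interval, and those of Suz12, Ezh1, Ezh2 and Tet3 are narrow around 0.

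The partners of the DNA methylation enzymes changed in both directions. Of 20 genes in the list 18 were in the table, and 12 were called, 6 higher and 6 lower, with a median log2 fold change of −0.03. The share called was 66.7%, against 36.6% of all genes. With equal totals 6 were higher and 4 lower. Uhrf1, which recruits DNMT1 to newly replicated DNA, had 1310, 1288 and 1305 normalized counts in WT and 1515, 1599 and 1664 in cKO. It rose with no overlap, by a log2 fold change of 0.29 (adjusted p = 0.000198). Its relative Uhrf2 rose from 5306 ± 50.4 (SD, 3 samples) to 6571 ± 183 (SD, 3 samples), a log2 fold change of 0.31 (adjusted p = 1.82e-07). Mbd3, of the methyl-CpG-binding domain family and a subunit of the NuRD complex, rose by the same 0.31 (adjusted p = 2.45e-07). Tdg, the glycosylase that excises the oxidised bases made by TET enzymes, fell from 4092 ± 150 (SD, 3 samples) to 3253 ± 119 (SD, 3 samples), a log2 fold change of −0.33 (adjusted p = 8.31e-07). Trdmt1, a relative of the DNA methyltransferases that methylates transfer RNA, fell by 0.43 on the log2 scale at a low level, near 246 normalized counts in WT (adjusted p = 0.0267). Its adjusted p was above 0.05 without WT replicate 1 (0.159), without cKO replicate 1 (0.115) and without cKO replicate 2 (0.0799), and with equal totals (0.0517), all by limma.

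Proliferation genes moved in the same direction as Dnmt1 and Uhrf1, both of which are known to be highest in dividing cells. Of 25 such genes 14 rose and 0 fell, with a median log2 fold change of 0.24. That is 56% called, against 36.6% of all genes, of which 17.8% were called higher. Their summed normalized counts ran from 77340 to 78913 in WT and from 90154 to 94467 in cKO. With equal totals 18 rose. Mki67, which encodes Ki-67, had 5561, 4929 and 5562 normalized counts in WT and 7436, 7303 and 7422 in cKO, a log2 fold change of 0.47 (adjusted p = 1.24e-09). These are RNA levels. By flow cytometry the study saw no significant change of Ki67 protein in cKO NK cells at steady state, and an unaltered cell cycle. Top2a rose by a log2 fold change of 0.26, Pcna by 0.23 and Mcm5 by 0.21, the last with an adjusted p of 0.000127. Of the 25 genes 11 were not called, among them Mcm2, Mcm3, Mcm4 and Mcm7, named after their values were seen. Ezh2, another gene known to be raised in dividing cells, was not called. The part of proliferation, or of the B-cell transcripts given above, in the rise of Dnmt1 and Uhrf1 was not tested.

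Around PRC2, 12 of 13 listed accessory genes and H3K27 demethylases were in the table, of which 1 rose and 5 fell, with a median log2 fold change of −0.01. Here 50% were called, against 36.6% of all genes. With equal totals 1 rose and 4 fell. Kdm6b, the demethylase that removes the PRC2 mark and is induced on activation of immune cells, had 140851, 132729 and 145058 normalized counts in WT and 107325, 100389 and 111093 in cKO. The groups stood apart, with a log2 fold change of −0.39 (adjusted p = 1.97e-09). The other H3K27 demethylase, Kdm6a, had 9681 ± 221 (SD, 3 samples) and 9663 ± 106 (SD, 3 samples), and its log2 fold change was near 0 (adjusted p = 0.964). Rbbp4, the histone chaperone subunit shared by PRC2 and NuRD, fell from 12302 ± 278 (SD, 3 samples) to 10542 ± 270 (SD, 3 samples), a log2 fold change of −0.22 (adjusted p = 6.15e-06), and Rbbp7 by 0.18 (adjusted p = 0.000234). Jarid2, which guides PRC2 to its targets, had 5416 ± 161 (SD, 3 samples) and 5382 ± 109 (SD, 3 samples) normalized counts (adjusted p = 0.884). Epop, which links PRC2 to elongin, was the rise, with a log2 fold change of 0.23 (adjusted p = 0.0231). Its groups overlapped, and its adjusted p was above 0.05 without WT replicate 1 (0.145) or 2 (0.065) and without cKO replicate 1 (0.0901) or 2 (0.0685), again by limma.

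In Polycomb repressive complex 1 (PRC1), which ubiquitinates histone H2A, and the complex that removes that mark, 25 of 26 listed genes were in the table. Of these 7 rose and 7 fell, and the median log2 fold change was 0.03. The share called was 56%, against 36.6% of all genes. With equal totals 10 rose and 5 fell. Among genes that passed the test, the largest rises were in PCGF subunits, Pcgf6 with a log2 fold change of 0.37 (adjusted p = 0.0113) and Pcgf3 with 0.30 (adjusted p = 0.000324). Without cKO replicate 2 the adjusted p of Pcgf6 was 0.119. The largest falls among genes that passed were Pcgf5, from 1493 ± 39.8 (SD, 3 samples) to 1237 ± 35.7 (SD, 3 samples), a log2 fold change of −0.27 (adjusted p = 0.000483), and Phc1, with −0.19 (adjusted p = 0.0044). Larger differences that did not pass were those of Scml2, with 15.4 and 23.8 mean normalized counts, overlapping groups and a log2 fold change of 0.65 (adjusted p = 0.306), and of Pcgf1, with 634 and 559, no overlap and −0.19 (adjusted p = 0.127), just beyond Phc1. The E3 ligase subunits differed in direction, Ring1 with 0.16 (adjusted p = 0.00482) and Rnf2 with −0.16 (adjusted p = 0.00115). Bmi1, the best known PCGF subunit, had 2292 ± 130 and 2302 ± 64.4 normalized counts (SD, 3 samples each) and was not called (adjusted p = 0.924). Bap1, the H2A deubiquitinase, had 8266 ± 71.6 and 8249 ± 360 (SD, 3 samples each, adjusted p = 0.948), while its cofactors Asxl1 and Asxl2 rose, by log2 fold changes of 0.19 (adjusted p = 0.000276) and 0.15 (adjusted p = 0.00706, and 0.0674 without WT replicate 2). Rbbp7, Scml2, Pcgf1, Ring1, Rnf2, Asxl1 and Asxl2 were named after their values were seen.

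**Figure D4:**
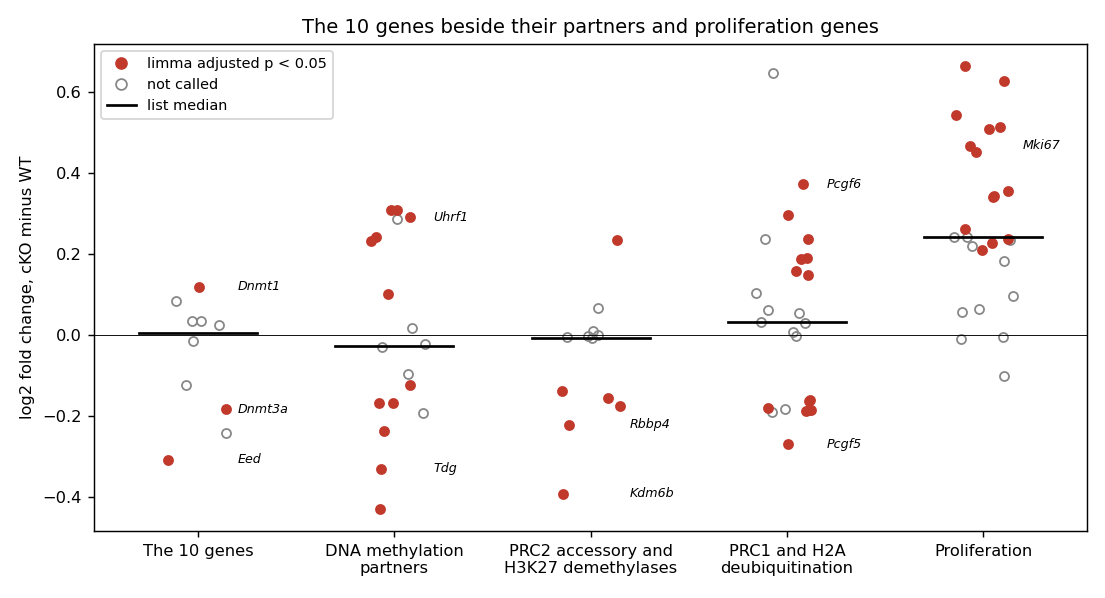
Log2 fold change, cKO minus WT (y axis), of the 10 genes, of their listed partners and of proliferation genes, 1 point per gene, filled red where the adjusted p was under 0.05, with the list median as a black line. The first 4 groups scatter on both sides of 0 with medians between −0.03 and 0.03, and the proliferation genes lie mostly above 0 with a median of 0.24.

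Genes most like Eed and Dnmt1 were found by the mean absolute difference of log2 values, each centred on its WT mean, over the 6 samples and 11752 genes with a mean of at least 1 CPM (counts scaled to equal totals). Nearest to Eed were Saraf, with a mean difference of 0.00881, AW549877, Stk40, Ifngr1 and Fkbp3. All 5 had log2 fold changes between −0.31 and −0.30, near that of Eed, which follows from how they were chosen. Nearest to Dnmt1 were R3hdm1, with a mean difference of 0.0041, Ncbp1, Rbm38, Colgalt1 and Papolg. Closeness of this kind was common, since 399 genes lay within 0.05 of Eed and 1215 within 0.05 of Dnmt1.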

How the data were processed

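Splenic NK cells of 3 WT and 3 cKO samples were sorted by the authors and profiled by polyA mRNA-seq. Sample titles gave each genotype and replicate number. Per the labels, HISAT2 mapped the paired reads to GRCm38, featureCounts summed them by gene and DESeq2 compared the genotypes. The strand setting of the counting is not given in the sources used here. Each sample has a column of signal that the authors deposited: each gene's count divided by the sample's size factor. Columns of the authors' own comparison (fold changes and p-values) and their mean were not used. In each sample 100% of values were whole multiples of 1 step, within 0.02 reads, which gave the reads per sample, for listed genes only.

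The filter asked for 1 normalized count or more in 3 or more samples, which all 14490 genes passed. On log2(value + 1), cKO was set against WT in limma 3.58.1 (R 4.3.3), using a mean-dependent prior variance and adjusting p by Benjamini-Hochberg over all genes. Single ratios were compared by the exact permutation test over 20 assignments. The steps were tested on simulated data. Symbols were matched to GENCODE M21 of GRCm38 (97.4%) for positions, exon lengths and transcripts. Alternatives were another pseudocount, other filters, equal totals, limma-voom, the replicate block and leaving out each replicate. The 10 genes and the gene lists were chosen with earlier results of these data known. Named genes are the 10, Mettl3, Ncr1, 6 fixed partners, 4 proliferation genes, up to 2 largest rises and falls per partner list among genes with an adjusted p under 0.05, and the 5 genes nearest to the called genes that rose and fell most. The chi-square over its degrees of freedom between samples of a genotype was at least 5.5, so no pair agreed within counting noise. The study's MeRIP-seq and proteomics were not used here.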

Additional observations from a re-analysis of the deposited data

How the results depend on the processing

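Eed, Dnmt3a and Dnmt1 kept direction and call under all 12 alternatives, with log2 fold changes from −0.316 to −0.259, from −0.207 to −0.134 and from 0.116 to 0.169. The number of the 10 genes called lay between 3 and 4. With equal totals 2 were higher, Suz12 was called at 0.0832, and Tet3 turned to 0.0341, Jarid2 to 0.0409, Kdm6a to 0.0472 and Bap1 to 0.0458, as this scaling raises the median of all genes to 0.0508 and the share of higher calls from 2576 of 5307 to 3487 of 5503. With a replicate left out, log2 fold changes ran from −0.192 to −0.0555 for Tet2, from −0.359 to −0.0955 for Tet1, from 0.0297 to 0.117 for Dnmt3b, from 0.00262 to 0.0609 for Ezh2, from 0.0189 to 0.0479 for Suz12, from −0.0514 to 0.00369 for Tet3, from −0.00695 to 0.0602 for Ezh1, from −0.0326 to 0.00929 for Jarid2, from −0.0188 to 0.0142 for Kdm6a, from −0.0271 to 0.0524 for Bmi1 and from −0.0339 to 0.0291 for Bap1. The log2 ratio of Ezh1 to Ezh2 ran from −0.0606 to 0.0352 and the rises among PRC2 accessory genes from 0 to 1. The cause was not tested. The replicate block called Tet2 (−0.124, limma adjusted p = 0.0142) and moved the count of all genes from 5307 to 5543. Same-numbered samples deviated together with correlations of −0.0396, 0.0559 and 0.038, so the numbers were not taken to pair the samples, and replicate 1 did not correlate best with its own number. On the recovered reads limma-voom was run, while the planned edgeR and DESeq2 tests were not. Depth limits Tet1 most, with as few as 165 reads in a sample.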
